A study of Mus musculus with 16 samples.

Results

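The difference between 2 diet effects was followed across the genes of epididymal white adipose tissue (eWAT), the fat pad that lies along the epididymis of the male mouse. For every gene the change from chow to high-fat diet (HFD) in the sample labelled wild-type (WT) was subtracted from the same change in the sample labelled Fgf1 null. The result, called the interaction here, is (null-labelled HFD minus null-labelled chow) minus (WT HFD minus WT chow) on the log2 scale. It is 0 where the diet effects are equal, negative where HFD raised a gene less, or lowered it more, in the null-labelled sample, and positive in the reverse case. It uses 8 of the 16 arrays of the series, all those of eWAT, and the remaining 8 are of liver. All probes detected in eWAT are included, which gave 10995 genes and 940 probes without a gene name, or 11935 features from the 25697 probes on the array.

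The samples compared were eWAT from FGF1 null mice fed HFD, FGF1 null mice fed normal chow, wild-type mice fed HFD and wild-type mice fed chow, all 24 weeks old after 16 weeks on their diet. The labels give no strain, no other allele or agent, and no details of the null allele. Each of the 4 groups is 1 RNA sample, since its 2 arrays are labelled as technical replicates, and the labels do not say whether a sample came from 1 mouse or several. Every standard error (SE) and p-value below is therefore set against the spread between arrays of the same RNA, and carries no information on how much mice vary. No test over mice is possible with 1 RNA sample per group, and taking away any 1 of the 4 samples ends the comparison.

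Fibroblast growth factor 1, the protein made from Fgf1, is a secreted factor that binds all FGF receptors and is held near cells by heparan sulfate. PPARγ is the nuclear receptor that drives adipocyte differentiation. As fat expands on a high-fat diet, adipocytes enlarge and secrete more leptin, macrophages gather around dying fat cells and take up their lipid, and fibroblasts lay down collagen. The question put by the 4 samples is whether the response of the fat pad to the diet differs with the Fgf1 genotype.

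The diet effects differed widely. limma called 4713 of 11935 features, 39.5% of those tested, at a Benjamini-Hochberg adjusted p under 0.05 and an interaction of at least 2-fold (1 on the log2 scale). Of these 2299 were called higher (19.3% of features) and 2414 lower (20.2%). Among the 8855 features detected on all 8 arrays 35.5% were called, 1269 higher (14.3%) and 1874 lower (21.2%). The median interaction of all features was -0.04, and the middle 90% ran between -2.50 and 3.06. With arrays scaled to a common median instead of common quantiles that median was -0.34 and the calls split into 37.3% higher and 62.7% lower, against 48.8% and 51.2%, so the direction of small interactions rests on the scaling. Of 1020 called genes with several probes, 10 had another probe called the other way. The percentages above are the background against which counts in the gene lists below are to be read.

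The called interactions took several forms. A diet effect was called for 10.2% of features in the null-labelled samples and 33.3% in the WT samples, and the median absolute diet effect was 0.33 and 0.63. Of the called interactions 416 had a called diet effect in the null-labelled pair only, 2841 in the WT pair only, and 131 in both with the same direction. In a further 934 neither diet effect alone was called. The remaining 391 features (3.28% of those tested) changed in opposite directions, 343 of them (2.87%) lower on HFD in the null-labelled pair and higher in WT, and 48 (0.402%) the reverse. Among features detected on all 8 arrays the share with opposite directions was 3.38%. Of the 667 features with both diet effects called, 276 thus moved the same way and 391 moved opposite ways.

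The called interactions were also sorted by whether 1 of the 4 samples stood apart, with the means of the other 3 within 1 log2 unit of each other and that sample at least 1 unit beyond them. WT chow was the sample apart in 1390 called features (29.5%), of which 966 were called higher and 424 lower. Null-labelled HFD was apart in 89, null-labelled chow in 88 and WT HFD in 248. No sample met this rule in the other 2898. These include features where 1 sample lies far off but the other 3 differ by 1 unit or more, such as Defb22 below. The counts by sample are therefore low, and the rule does not show how many samples contribute to a difference. Among called features detected on all 8 arrays WT chow was apart in 766 (24.4%), 371 higher and 395 lower. The excess of higher calls for WT chow was thus absent there. WT HFD was apart in 75 of these features, null-labelled HFD in 61 and null-labelled chow in 49.

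**Figure D1:**
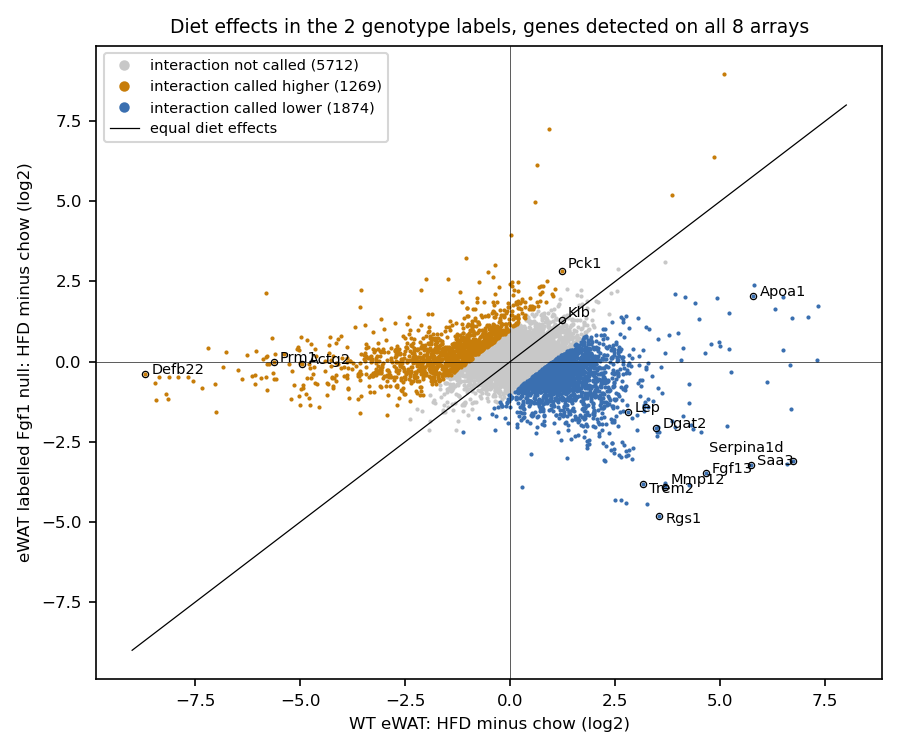
Diet effect (HFD minus chow, log2) in the null-labelled samples (vertical axis) against that in the WT samples (horizontal axis), each point 1 of 8855 features detected on all 8 arrays. Points on the diagonal have equal diet effects. The 1874 called lower lie below it, 961 with a diet effect called in WT alone and 266 with a WT rise and a null-labelled fall. The 1269 called higher lie above it, 799 with a diet effect called in WT alone and 33 with opposite effects.

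Fgf1 itself was read as a check of the labels. Its level was 9.19 and 9.37 in null-labelled HFD, 10.18 and 9.79 in null-labelled chow, 10.70 and 10.85 in WT HFD and 9.47 and 9.16 in WT chow. The null-labelled chow arrays thus lie above the WT chow arrays, which goes against the label, while the null-labelled HFD arrays lie below the WT HFD arrays. Its interaction was -2.16 ± 0.25 (SE, adjusted p = 1.53e-04), with a rise on HFD in WT of 1.46 ± 0.17 and a difference of -0.71 ± 0.17 in the null-labelled pair that was not called. In liver the same probe read 8.18 and 8.28 in null-labelled HFD, 9.24 and 9.48 in null-labelled chow, 9.63 and 9.68 in WT HFD and 10.38 and 10.23 in WT chow, so there it was lower in the null-labelled sample on both diets. Where the probe lies with respect to the deletion is not known here. The samples are therefore called null-labelled throughout, and every direction below rests on that label.

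Whether the chow samples of eWAT were exchanged was not tested, and the labels are kept as given. In a repeat chosen after seeing the data, with the labels of the 2 chow samples exchanged, 3401 features were called, 1730 higher and 1671 lower. Of the 4713 features called as labelled, 565 were then called the same way, 1861 the other way and 2287 were not called. Opposite diet effects were called in 158 features, 56 lower on HFD in the null-labelled pair and higher in WT and 102 the reverse. Trem2 then had an interaction of 3.68 ± 0.23, Adgre1 3.43 ± 0.19, Saa3 2.03 ± 0.25 and Pparg 1.10 ± 0.16, each positive where it is negative as labelled, and Lep, at 0.47 ± 0.19, was not called. The median of the macrophage list was 2.10, that of the collagens 0.78, that of the adipocyte genes 0.75 and that of the sperm genes -5.44, all of the other sign. The medians of the hepatocyte genes (-5.02), the lipogenesis genes (-0.60), the cholesterol biosynthesis genes (-0.29) and the epididymal genes (3.82) kept theirs.

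Transcripts of other organs were present in eWAT and differed between the 4 samples. The summed normalized intensity of 24 hepatocyte genes was 63800 and 60200 in null-labelled HFD, 15000 and 14400 in null-labelled chow, 239000 and 249000 in WT HFD and 38600 and 39000 in WT chow. That of 34 genes of the exocrine pancreas other than lipases was 823000 and 808000 in null-labelled HFD, 35700 and 35800 in null-labelled chow, 116000 and 113000 in WT HFD and 60200 and 62300 in WT chow. On chow most of this list was at background: 7 of the 34 genes were detected on both arrays of null-labelled chow, and Cuzd1 and Nupr1 made up 92.3% of the sum there, while 8 were detected in WT chow, where that pair made up 96.7%. All 34 were detected in null-labelled HFD and 30 in WT HFD. For 28 genes of sperm and spermatids it was 4690 and 4270 in null-labelled HFD, 6740 and 6080 in null-labelled chow, 4160 and 4240 in WT HFD and 222000 on each array of WT chow, so that WT chow alone was high. Genes of epididymis and seminal vesicle, 27 in number, summed to 129000 on each array of null-labelled HFD, 204000 and 200000 in null-labelled chow, 3250 and 3330 in WT HFD and 356000 and 368000 in WT chow, with WT HFD alone low. The defining hepatocyte gene Alb, the islet gene Ins1, the epididymal gene Crisp1 and the sperm gene Prm2 are not among the genes tested, nor are the macrophage genes Cd68 and Csf1r. The part of these transcripts in the interactions of other genes was not tested beyond 1 repeat, chosen after seeing the data, in which the organ lists and genes at least 4-fold higher in liver than in eWAT were left out of normalization and test: 4292 of 11254 features were then called, 363 of them with opposite diet effects.

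**Figure D2:**
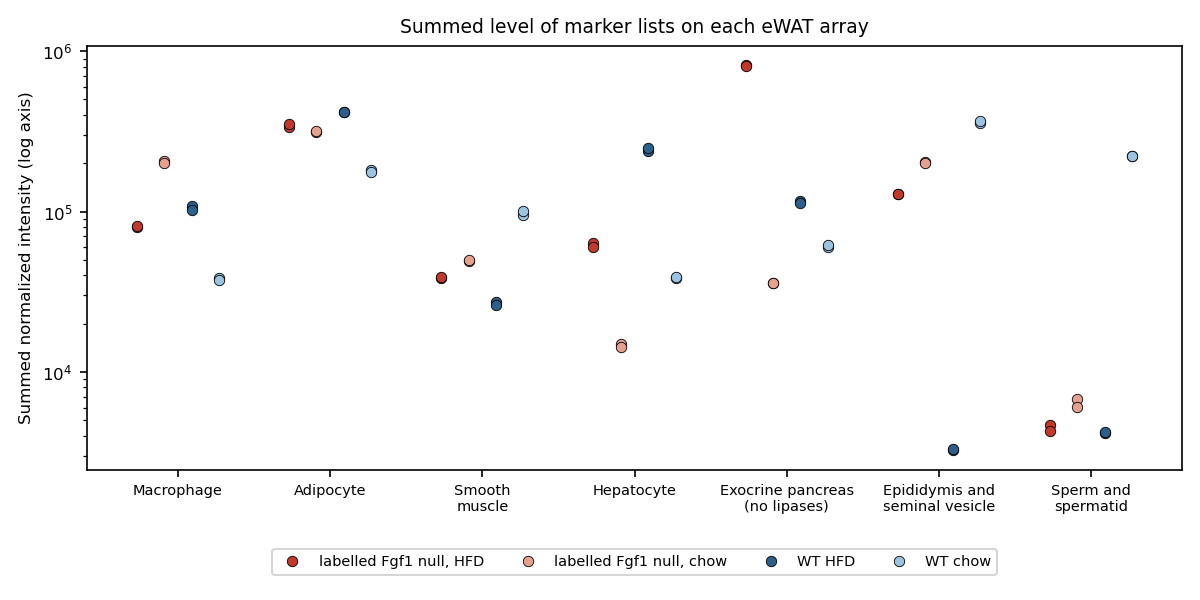
Summed normalized intensity (log axis) of 7 marker lists on each eWAT array, 2 points per sample, in the order null-labelled HFD, null-labelled chow, WT HFD, WT chow. Macrophage genes are highest in null-labelled chow, adipocyte genes in WT HFD, hepatocyte genes in WT HFD, exocrine pancreas genes in null-labelled HFD and sperm genes in WT chow.

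Among genes detected on all 8 arrays, the 10 with the largest opposite diet effects, by the smaller of the 2 effects, all fell on HFD in the null-labelled pair and rose in WT. They were Slc5a7, Paqr9, Mmp12, Rgs1, Fgf13, Lipf, Saa3, Serpina1b, Trem2 and Serpina1d. Trem2, a receptor for lipids on macrophages, had a level of 8.50 and 8.65 in null-labelled HFD, 12.44 and 12.32 in null-labelled chow, 10.07 and 10.37 in WT HFD and 7.23 and 6.88 in WT chow. Both null-labelled chow arrays were the highest, and no 2 samples overlapped. Its interaction was -6.97 ± 0.23 (adjusted p = 3.47e-07), made of -3.80 ± 0.16 in the null-labelled pair and 3.16 ± 0.16 in WT.

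Mmp12, the macrophage elastase, had the same order of samples, at 8.08 and 8.12 in null-labelled HFD, 11.89 and 12.14 in null-labelled chow, 9.18 and 9.19 in WT HFD and 5.55 and 5.46 in WT chow, and an interaction of -7.59 ± 0.18 (adjusted p = 1.63e-07). Rgs1, which ends G-protein signals in leukocytes, stood at 7.39 and 6.83 in null-labelled HFD, 11.96 and 11.89 in null-labelled chow, 9.35 and 9.10 in WT HFD and 5.85 and 5.52 in WT chow, with an interaction of -8.36 ± 0.29. In all 3 genes null-labelled chow was highest and WT chow lowest.

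Saa3, the serum amyloid A made in fat and by macrophages, differed in that its 2 highest samples were close. Its level was 8.38 and 8.22 in null-labelled HFD, 11.38 and 11.64 in null-labelled chow, 11.71 and 11.80 in WT HFD and 6.27 and 5.79 in WT chow, so null-labelled chow and WT HFD were both high, and its interaction was -8.94 ± 0.25 (adjusted p = 2.10e-07). Slc5a7, the choline transporter of cholinergic nerve endings, showed the same form at 5.97 and 6.12 in null-labelled HFD, 9.98 and 9.80 in null-labelled chow, 10.04 and 10.04 in WT HFD and 5.66 and 5.92 in WT chow (interaction -8.09 ± 0.19). So did Paqr9, of the adiponectin and progestin receptor family, at 7.33 and 7.53 in null-labelled HFD, 11.36 and 11.09 in null-labelled chow, 11.56 and 11.65 in WT HFD and 8.0 and 7.85 in WT chow (interaction -7.47 ± 0.20). Lipf, gastric lipase, was at 6.47 and 5.96 in null-labelled HFD, 10.48 and 10.84 in null-labelled chow, 9.13 and 9.37 in WT HFD and 6.23 and 5.77 in WT chow, with an interaction of -7.70 ± 0.33.

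Serpina1b and Serpina1d, near-identical copies of the antitrypsin gene, are abundant in liver. Serpina1d was at 8.78 and 8.60 in null-labelled HFD, 11.96 and 11.65 in null-labelled chow, 14.68 and 14.68 in WT HFD and 7.96 and 7.94 in WT chow, with an interaction of -9.84 ± 0.20, and Serpina1b had -9.77 ± 0.16. Probes for these copies can bind each other's transcripts, so the pair counts as 1 observation of uncertain gene origin. Arg1, an enzyme of the urea cycle in liver and of arginine use in macrophages, rose by 6.68 ± 0.16 in WT and fell by 1.47 ± 0.16 in the null-labelled pair, an interaction of -8.16 ± 0.22. Tph2, a serotonin synthesis enzyme, had the most negative interaction of all features, -11.05 ± 0.26. It was at 4.93 and 5.50 in null-labelled HFD, 12.03 and 11.97 in null-labelled chow, 9.59 and 9.70 in WT HFD and 5.49 and 5.28 in WT chow, and was not detected on all of these arrays, so its low levels are near background. Its diet effects were -6.79 ± 0.19 in the null-labelled pair and 4.26 ± 0.19 in WT, of which the smaller is larger than in any of the 10 genes above.

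The promoter windows of 4 genes are shown, each lower on HFD in the null-labelled pair and higher in WT. They are Trem2, Mmp12 and Saa3 from macrophages and inflamed fat, and Lep from adipocytes, whose interaction is described below. Their levels did not otherwise run alike: Trem2 and Mmp12 were highest in null-labelled chow, Saa3 and Lep in WT HFD. The windows run from 250 bases before to 50 after a gene's start in RefSeq (build GRCm38.p6), and Mmp12 has 2 of them. Capitals mark letters found on either strand for AGGAAGT (a PU.1 motif, of the factor that specifies macrophages), TGANTCA (AP-1), TTGCNNAA (C/EBP) and TATAAA (the core promoter element named after it), where N is any base.
Trem2, chr17:48346151-48346450, plus strand: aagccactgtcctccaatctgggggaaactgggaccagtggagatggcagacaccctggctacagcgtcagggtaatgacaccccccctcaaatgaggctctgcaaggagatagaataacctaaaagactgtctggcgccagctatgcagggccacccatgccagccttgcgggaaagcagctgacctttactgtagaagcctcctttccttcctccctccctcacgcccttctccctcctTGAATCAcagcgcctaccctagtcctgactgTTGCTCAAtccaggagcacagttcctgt
Mmp12, chr9:7344147-7344446, plus strand: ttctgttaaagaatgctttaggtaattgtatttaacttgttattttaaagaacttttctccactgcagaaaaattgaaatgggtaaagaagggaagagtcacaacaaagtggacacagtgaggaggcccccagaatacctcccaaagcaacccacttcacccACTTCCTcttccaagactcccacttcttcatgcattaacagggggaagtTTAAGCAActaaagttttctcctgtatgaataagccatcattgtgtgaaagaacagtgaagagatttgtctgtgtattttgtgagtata
Mmp12, chr9:7347124-7347423, plus strand: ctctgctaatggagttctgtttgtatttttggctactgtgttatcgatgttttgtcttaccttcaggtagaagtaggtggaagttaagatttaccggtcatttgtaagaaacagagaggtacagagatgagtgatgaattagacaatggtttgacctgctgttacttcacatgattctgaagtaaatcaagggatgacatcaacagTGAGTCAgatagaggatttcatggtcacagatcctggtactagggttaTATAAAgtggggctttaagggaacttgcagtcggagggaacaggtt
Saa3, chr7:46715627-46715926, minus strand: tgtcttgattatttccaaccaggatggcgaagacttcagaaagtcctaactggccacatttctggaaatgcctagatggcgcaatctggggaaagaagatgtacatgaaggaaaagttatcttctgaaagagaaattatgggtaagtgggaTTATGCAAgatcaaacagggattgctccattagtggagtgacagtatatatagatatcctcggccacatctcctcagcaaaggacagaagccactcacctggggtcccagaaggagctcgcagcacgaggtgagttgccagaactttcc
Lep, chr6:29059971-29060270, plus strand: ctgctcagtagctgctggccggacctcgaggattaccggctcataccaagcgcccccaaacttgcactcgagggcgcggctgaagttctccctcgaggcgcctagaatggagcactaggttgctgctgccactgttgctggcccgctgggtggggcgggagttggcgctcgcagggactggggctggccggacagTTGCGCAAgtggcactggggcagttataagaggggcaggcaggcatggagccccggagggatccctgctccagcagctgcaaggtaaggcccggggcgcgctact
Trem2 holds an AP-1 and a C/EBP match, the first Mmp12 window a PU.1 and a C/EBP match, the second an AP-1 match and the TATAAA letters, and Saa3 and Lep a C/EBP match each. Of the 318 named genes that fell on HFD in the null-labelled pair and rose in WT, 239 have a window. Among those genes 20.5% held the PU.1 letters, against 10.6% of all 8864 tested genes with a window. The share was 13.4% against 7.24% for AP-1, 19.2% against 11.2% for C/EBP and 20.5% against 10.5% for TATAAA. These are matches of letters in a fixed window, with motifs that can overlap, and say nothing of whether a factor binds.

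Among FGF genes the interaction of Fgf13 was the largest. Fgf13 encodes an intracellular FGF that binds sodium channels and is not secreted. Its level was 8.02 and 8.12 in null-labelled HFD, 11.60 and 11.51 in null-labelled chow, 12.16 and 12.03 in WT HFD and 7.68 and 7.21 in WT chow. Null-labelled chow and WT HFD were high and the other samples low, with an interaction of -8.14 ± 0.24 (adjusted p = 2.31e-07). Fgf10, a paracrine factor that supports preadipocytes, was at 10.53 and 10.50 in null-labelled HFD, 10.48 and 10.56 in null-labelled chow, 10.88 and 11.01 in WT HFD and 9.39 and 9.30 in WT chow. Only WT chow was low, and the interaction was -1.60 ± 0.16. Fgf21, the fasting hormone that acts through the coreceptor Klb, ran the other way: 8.72 and 8.61 in null-labelled HFD, 6.16 and 6.44 in null-labelled chow, 7.01 and 7.30 in WT HFD and 6.69 and 6.05 in WT chow, with null-labelled HFD alone high and an interaction of 1.59 ± 0.31 (adjusted p = 0.00302).

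Of 7 FGF ligand genes tested 2 were called higher and 3 lower (median -1.02), and of 13 receptors and coreceptors 2 were higher and 6 lower. Fgfr1, the main FGF receptor of fat, had an interaction of -1.99 ± 0.39, which lost its call without background correction. Fgfr3, a receptor that is dim here, had 2.01 ± 0.19 and lost its call likewise. The heparan sulfate carriers Sdc1, Sdc3 and Gpc1, which hold FGFs at the cell surface, had -2.75, -2.64 and -2.42. The median of the receptor list was 0.06, and its sign rests on the processing: it was -0.28 with median scaling, -0.47 over the 12 members detected on all 8 arrays and -0.13 with undetected samples at their floor. Of 6 genes of feedback on FGF signalling 1 was called higher and 0 lower (median -0.04), the 1 being Frs3, an adaptor of FGF receptors that was detected in WT chow alone, so that its interaction cannot be bounded.

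Klb was among the genes with a diet effect in both pairs and no called interaction. It was at 9.35 and 9.55 in null-labelled HFD, 8.01 and 8.33 in null-labelled chow, 9.26 and 9.09 in WT HFD and 7.87 and 8.02 in WT chow, higher on HFD by 1.28 ± 0.15 in the null-labelled pair and by 1.22 ± 0.15 in WT. The interaction was 0.06 ± 0.22 (adjusted p = 0.841), with a 95% interval between -0.45 and 0.56.

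**Figure D3:**
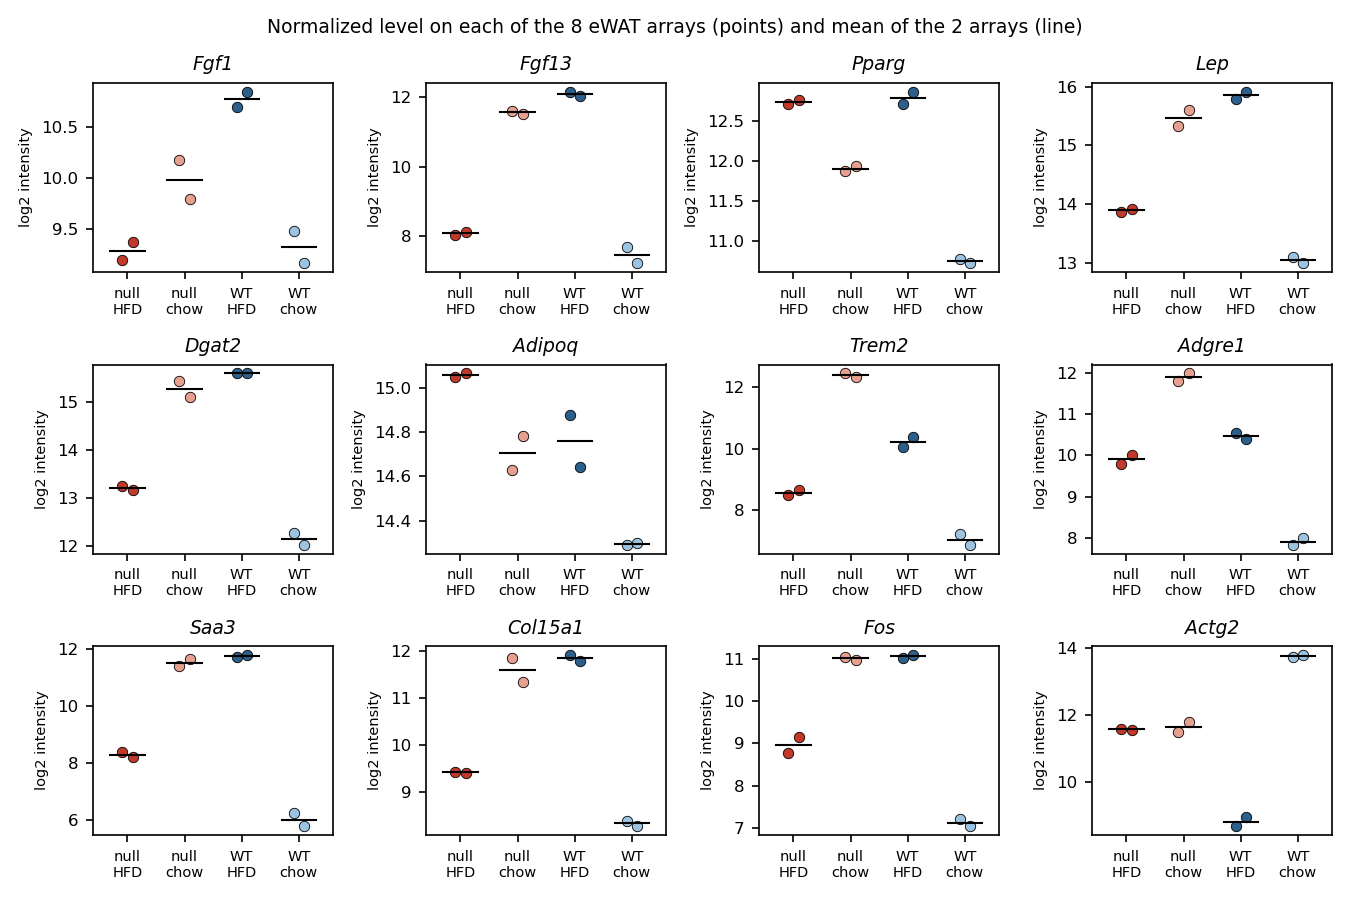
Normalized log2 intensity of 12 genes on each eWAT array (points) with the mean of 2 arrays (line), samples left to right null-labelled HFD, null-labelled chow, WT HFD and WT chow, each panel with its own axis. Fgf13, Lep, Dgat2, Saa3, Col15a1 and Fos are high in null-labelled chow and WT HFD, Trem2 and Adgre1 are highest in null-labelled chow, and Actg2 is highest in WT chow.

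Adipocyte genes mostly had a negative interaction. Of 27 adipocyte genes and PPARγ targets 15 were called lower and 2 higher (median -1.10; the median diet effect was 0.23 in the null-labelled pair and 1.59 in WT), where 20.2% of all features were called lower. Lep, which encodes leptin, was at 13.87 and 13.91 in null-labelled HFD, 15.34 and 15.61 in null-labelled chow, 15.79 and 15.91 in WT HFD and 13.09 and 12.99 in WT chow. It fell on HFD in the null-labelled pair and rose in WT, an interaction of -4.39 ± 0.19 (adjusted p = 7.85e-07). Dgat2, the last enzyme of triglyceride synthesis, had the same form at 13.25 and 13.16 in null-labelled HFD, 15.43 and 15.11 in null-labelled chow, 15.61 and 15.61 in WT HFD and 12.26 and 12.02 in WT chow, with -5.53 ± 0.21. Agpat2, an earlier enzyme of that pathway, had -4.60 ± 0.21 and the fatty acid carrier Fabp5 -5.39 ± 0.38.

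Pparg was high in 3 samples and low in 1. Its level was 12.72 and 12.76 in null-labelled HFD, 11.88 and 11.94 in null-labelled chow, 12.72 and 12.87 in WT HFD and 10.78 and 10.72 in WT chow, a rise in WT of 2.04 ± 0.11 beside 0.83 ± 0.11 in the null-labelled pair, which was not called. The interaction was -1.21 ± 0.16 (adjusted p = 3.49e-04). Cebpa, its partner in adipocyte differentiation, had -2.61 ± 0.39, Plin1, the coat protein of the fat droplet, had -2.14 ± 0.18, and Slc2a4, the insulin-responsive glucose transporter, had -2.42 ± 0.28. Each of these 3 rose in WT and had no called diet effect in the null-labelled pair. Cidec, a droplet fusion protein, had -1.10 ± 0.23. Its call was lost without null-labelled chow array 1 (-0.92), without WT HFD array 2 (-0.94) and with the genes of other organs left out (-0.69).

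Adipoq, which encodes adiponectin and is made by adipocytes only, was not called. It was at 15.05 and 15.07 in null-labelled HFD, 14.63 and 14.78 in null-labelled chow, 14.88 and 14.64 in WT HFD and 14.29 and 14.30 in WT chow, with an interaction of -0.11 ± 0.18 and a 95% interval between -0.53 and 0.30. Summed intensity of the 27 adipocyte genes was 337000 and 351000 in null-labelled HFD, 314000 and 318000 in null-labelled chow, 419000 on each array of WT HFD and 181000 and 177000 in WT chow, lowest in WT chow. In such bulk samples fewer cells of a type and less RNA per cell cannot be told apart. Pck1, which supplies glycerol for triglyceride in fat, was called higher: 8.58 and 8.71 in null-labelled HFD, 5.81 and 5.84 in null-labelled chow, 7.14 and 6.84 in WT HFD and 5.60 and 5.93 in WT chow, an interaction of 1.60 ± 0.22 with HFD levels above chow levels in both pairs.

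Of 13 adipokine genes 7 were called lower and 2 higher (median -1.92). Sfrp5, a secreted Wnt inhibitor of fat cells, fell on HFD in the null-labelled pair and rose in WT, -3.78 ± 0.29. Metrnl, a secreted factor of fat and muscle, had -3.37 ± 0.19. Retn, which encodes resistin, was at least 4.39-fold lower with undetected samples set to the lowest detected signal of their arrays. Of 24 genes of triglyceride synthesis and the lipid droplet 8 were lower and 0 higher (median -0.69), among them Plin2, the general droplet coat protein, at -3.56 ± 0.29, and Mogat2, an acyltransferase, at least 84.3-fold lower. Of 12 lipolysis genes 6 were lower and 0 higher (median -1.21). Npr3, the clearance receptor for natriuretic peptides, stood at -4.13 ± 0.16, the lipase coactivator Abhd5 at -2.30 ± 0.21, and the lipase inhibitor G0s2 at -2.28 ± 0.25.

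Genes of fatty acid and cholesterol synthesis followed the same direction. Of 19 lipogenesis genes 12 were called lower and 1 higher (median -1.21). Acss2, which makes acetyl-CoA from acetate, was at 10.60 and 10.67 in null-labelled HFD, 11.70 and 11.70 in null-labelled chow, 13.51 and 13.48 in WT HFD and 10.34 and 10.46 in WT chow. It fell in the null-labelled pair and rose in WT, an interaction of -4.17 ± 0.16. Thrsp, a lipogenic regulator, was at 9.87 and 9.84 in null-labelled HFD, 9.63 and 9.97 in null-labelled chow, 12.60 and 12.63 in WT HFD and 8.59 and 8.51 in WT chow, with WT HFD alone high and an interaction of -4.01 ± 0.19. Slc25a1, the citrate carrier, had -3.54 ± 0.17 and Srebf1, the transcription factor of lipogenesis, -3.23 ± 0.22. Fasn, fatty acid synthase, was at least 7.67-fold lower, read from a probe that was not detected in every eWAT sample. In liver that probe was dim as well and was undetected on chow under both genotype labels. Scd1, the stearoyl-CoA desaturase, was bright in all samples and was not called, at -0.18 ± 0.15 (95% interval between -0.53 and 0.17).

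Of 13 cholesterol biosynthesis genes 10 were lower and 0 higher (median -1.41). Lss, lanosterol synthase, was at 6.82 and 6.92 in null-labelled HFD, 8.30 and 8.18 in null-labelled chow, 8.62 and 8.62 in WT HFD and 6.07 and 6.26 in WT chow and had -3.83 ± 0.17, and Sc5d and Mvd, which act later and earlier in the pathway, had -3.02 ± 0.21 and -2.40 ± 0.16. Liver expresses these pathways too. With members leaving the list where liver is at least 4-fold above eWAT, a choice made once the data had been seen, medians came to -1.28 for 16 lipogenesis genes and -1.62 for 8 cholesterol genes.

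Oxidation and respiration lists had medians closer to 0. Of 26 genes of fatty acid oxidation and ketogenesis 9 were lower and 4 higher (median -0.61). Acaa1b, a peroxisomal thiolase, had -2.81 ± 0.16 and Acot1, an acyl-CoA thioesterase, 2.46 ± 0.24 in the other direction. Of 33 subunits of oxidative phosphorylation 8 were lower and 0 higher (median -0.30), a share near the 20.2% of all features. The ATP synthase subunits Atp5j and Atp5b had -1.80 ± 0.23 and -1.67 ± 0.21, and the complex II subunit Sdhb -1.38 ± 0.18.

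Of 8 thermogenic genes 5 were lower and 1 higher. Cox8b, a respiratory subunit of brown and beige fat, was at 8.37 and 8.17 in null-labelled HFD, 9.49 and 9.36 in null-labelled chow, 9.34 and 8.99 in WT HFD and 6.01 and 5.73 in WT chow, with -4.45 ± 0.23, and Cox7a1, another such subunit, had -2.83 ± 0.22. Of 20 genes of glucose uptake, glycolysis and insulin signal 10 were lower and 2 higher (median -0.93). These counts include Pigq (-1.30 ± 0.32, called lower), which belongs to none of these pathways. Pfkp, the platelet form of phosphofructokinase, stood at -4.38 ± 0.26, Aldoa, an aldolase, at -2.46 ± 0.20, and Socs3, an inhibitor of cytokine and insulin signals, at -2.20 ± 0.24.

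Macrophage genes had one of the most negative medians of the lists. Of 31 tested 25 were called lower and 1 higher (median -2.63; median diet effect -1.23 in the null-labelled pair and 1.54 in WT), and 15 of them changed in opposite directions. Adgre1, which encodes the F4/80 surface receptor, was at 9.79 and 10.02 in null-labelled HFD, 11.81 and 11.99 in null-labelled chow, 10.54 and 10.41 in WT HFD and 7.83 and 7.99 in WT chow. Null-labelled chow was highest, WT chow lowest, and the interaction was -4.56 ± 0.19 (adjusted p = 7.95e-07). Cd84, a leukocyte adhesion receptor, had -5.17 ± 0.18 and Vsig4, the complement receptor of resident macrophages, -4.71 ± 0.18. C1qb, a chain of complement C1q made by macrophages, was at 12.27 and 12.29 in null-labelled HFD, 14.05 and 13.84 in null-labelled chow, 12.52 and 12.61 in WT HFD and 10.84 and 10.67 in WT chow, with -3.47 ± 0.18. Summed over the 31 genes the intensity was 80700 and 81600 in null-labelled HFD, 206000 and 200000 in null-labelled chow, 109000 and 103000 in WT HFD and 38500 and 37400 in WT chow. Both pairs contribute: the null-labelled chow sum was above that of HFD and the WT chow sum below. The chow samples were thus the highest and the lowest. With the chow labels exchanged 27 of the 31 were called higher and 1 lower.

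Of 18 genes of lipid-associated macrophages, the state found around dying adipocytes, 15 were lower and 0 higher (median -2.47), 8 with opposite diet effects. Gpnmb, a glycoprotein of lipid-laden macrophages, was at 11.72 and 11.56 in null-labelled HFD, 14.45 and 14.66 in null-labelled chow, 12.82 and 12.87 in WT HFD and 10.30 and 10.19 in WT chow, an interaction of -5.52 ± 0.18. Ctsk and Ctss, lysosomal proteases, had -3.85 ± 0.17 and -3.91 ± 0.30. Of 25 lysosome and proton pump genes 15 were lower and 0 higher (median -1.19), with Ctsz at -3.58 ± 0.21 and the glucuronidase Gusb at -2.95 ± 0.18. Trem2 and Mmp12 belong to this state as well, and several of these genes stand in more than 1 list.

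Chemokine and cytokine genes were mostly lower. Of 25 chemokines and receptors 16 were lower and 3 higher (median -1.88). Ccl7, a monocyte attractant, was at 6.71 and 6.37 in null-labelled HFD, 9.30 and 9.31 in null-labelled chow, 8.43 and 8.11 in WT HFD and 5.56 and 5.32 in WT chow, with -5.60 ± 0.24. Ccl2, the main monocyte attractant of obese fat, was at least 8.72-fold lower. Cxcl1, a neutrophil attractant, had -4.58 ± 0.18 and Ccl4 -4.53 ± 0.28. Of 19 cytokines and receptors 10 were lower and 1 higher (median -1.25). Il1rn, the antagonist of interleukin 1, had -4.88 ± 0.28, Il10ra, a receptor chain for interleukin 10, -3.19 ± 0.20, and Tgfb1 -2.10 ± 0.20. Tnf was called at -1.89 ± 0.15, but it was detected in null-labelled chow alone, at 4.38 and 4.46 in null-labelled HFD, 6.13 and 6.14 in null-labelled chow, 4.70 and 4.80 in WT HFD and 4.59 and 4.56 in WT chow, and its interaction cannot be bounded.

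Other leukocyte genes were mixed. Of 19 lymphocyte genes 11 were lower and 2 higher (median -1.54). Il7r, the receptor of interleukin 7, was at 7.92 and 7.53 in null-labelled HFD, 10.96 and 10.70 in null-labelled chow, 8.67 and 8.58 in WT HFD and 6.42 and 6.31 in WT chow, with -5.36 ± 0.23, and Cd79b, a chain of the B cell receptor, had -3.73 ± 0.24. Gata3, a T helper factor that epithelia also express, was at least 23.9-fold higher, with WT HFD alone undetected. Of 13 neutrophil and mast cell genes 7 were lower and 2 higher. S100a8, a neutrophil alarmin, had -5.59 ± 0.19 and Cpa3, a mast cell protease, -2.66 ± 0.22. Ltf, lactoferrin, which neutrophils and genital epithelia make, was at 12.44 and 12.55 in null-labelled HFD, 11.16 and 11.47 in null-labelled chow, 5.31 and 6.01 in WT HFD and 13.67 and 13.56 in WT chow (interaction 9.13 ± 0.32, detected on some arrays), with WT HFD low in the same way as the epididymal genes.

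Of 18 genes of antigen presentation 6 were lower and 0 higher (median -0.64). Ciita, which switches on class II genes, had -2.18 ± 0.18 and H2-DMb1, a class II chaperone, -2.07 ± 0.18. Both fell on HFD in the null-labelled pair with no called change in WT. The class II genes H2-Aa (-0.24), H2-Ab1 (-0.60), H2-Eb1 (-0.64), H2-DMa (-0.70) and Cd74 (-0.46) were not called. Of 20 interferon-stimulated genes 13 were lower and 1 higher (median -1.26), such as Gbp3 at -3.18 ± 0.24 and Oas2 at -2.91 ± 0.23, while Isg20 had 2.88 ± 0.22. Of 18 complement genes 15 were lower and 2 higher (median -2.02), but liver makes many of them: the median was -1.45 for the 10 that are not at least 4-fold higher in liver.

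The matrix lists had negative medians. Of 17 collagens 11 were lower and 0 higher (median -2.16), 6 with opposite diet effects. Col15a1, a collagen of basement membranes around adipocytes and vessels, was at 9.43 and 9.40 in null-labelled HFD, 11.86 and 11.34 in null-labelled chow, 11.93 and 11.79 in WT HFD and 8.39 and 8.26 in WT chow. Null-labelled chow and WT HFD overlapped and were high, and the interaction was -5.72 ± 0.24. Col1a1, the main fibrillar collagen, was at 9.61 and 9.81 in null-labelled HFD, 11.16 and 10.83 in null-labelled chow, 10.47 and 10.64 in WT HFD and 8.72 and 8.93 in WT chow and had -3.01 ± 0.22. Col3a1 and Col6a2 had -3.23 ± 0.19 and -3.90 ± 0.24. Of 27 other matrix genes 14 were lower and 0 higher (median -1.14), among them the matrix glycoprotein Tnc at -3.59 ± 0.29 and Lum, a collagen-binding proteoglycan, at -2.56 ± 0.20. Serpinh1, the collagen chaperone, was at least 22.2-fold lower.

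Of 19 genes of matrix proteases and their inhibitors 11 were lower and 2 higher (median -1.23), and 8 had opposite diet effects. Adam8, a leukocyte membrane protease, had -3.67 ± 0.19 and Adamts5, an aggrecanase, -3.63 ± 0.42. Mmp9, the gelatinase of neutrophils, was the other way, at 9.58 and 9.20 in null-labelled HFD, 6.15 and 7.06 in null-labelled chow, 7.35 and 7.32 in WT HFD and 7.84 and 7.88 in WT chow with null-labelled HFD alone high (interaction 3.31 ± 0.38).

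The remaining cell types of the fat pad differed among themselves. Of 20 stromal progenitor genes 7 were lower and 3 higher (median -0.66), with Dpt, dermatopontin of fibroblasts, at -2.99 ± 0.18 and Bmp7 at 2.51 ± 0.47. Of 23 endothelial genes 8 were lower and 2 higher (median -0.47). Aplnr, the apelin receptor, had -5.13 ± 0.20 and Nos3, endothelial nitric oxide synthase, -2.28 ± 0.15, whereas Sox17, an arterial transcription factor, was higher in null-labelled HFD alone and had 2.14 ± 0.17. Of 15 mesothelial genes 4 were higher and 1 lower (median -0.13), the 4 including the epithelial keratins Krt18 and Krt8 at 3.32 ± 0.20 and 2.21 ± 0.17, which the epididymis also expresses.

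Smooth muscle genes had a positive median. Of 15 genes 8 were higher and 1 lower (median 1.28; median diet effect -0.23 in the null-labelled pair and -1.59 in WT). Actg2, the actin of visceral smooth muscle, was at 11.58 and 11.56 in null-labelled HFD, 11.48 and 11.80 in null-labelled chow, 8.67 and 8.96 in WT HFD and 13.72 and 13.81 in WT chow, with an interaction of 4.88 ± 0.21 (adjusted p = 9.29e-07). Myh11, smooth muscle myosin, was at 10.83 and 10.94 in null-labelled HFD, 11.60 and 11.34 in null-labelled chow, 9.49 and 9.48 in WT HFD and 13.04 and 13.10 in WT chow, with 3.0 ± 0.18, and Acta2 had 1.36 ± 0.18. For Actg2 and Myh11 WT chow was highest and WT HFD lowest. Summed intensity of the list was 38300 and 39100 in null-labelled HFD, 49300 and 49700 in null-labelled chow, 27300 and 26100 in WT HFD and 95300 and 101000 in WT chow. Smooth muscle also surrounds the epididymal duct, and epididymal genes were high in WT chow and low in WT HFD too. Their part in this list was not tested.

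**Figure D4:**
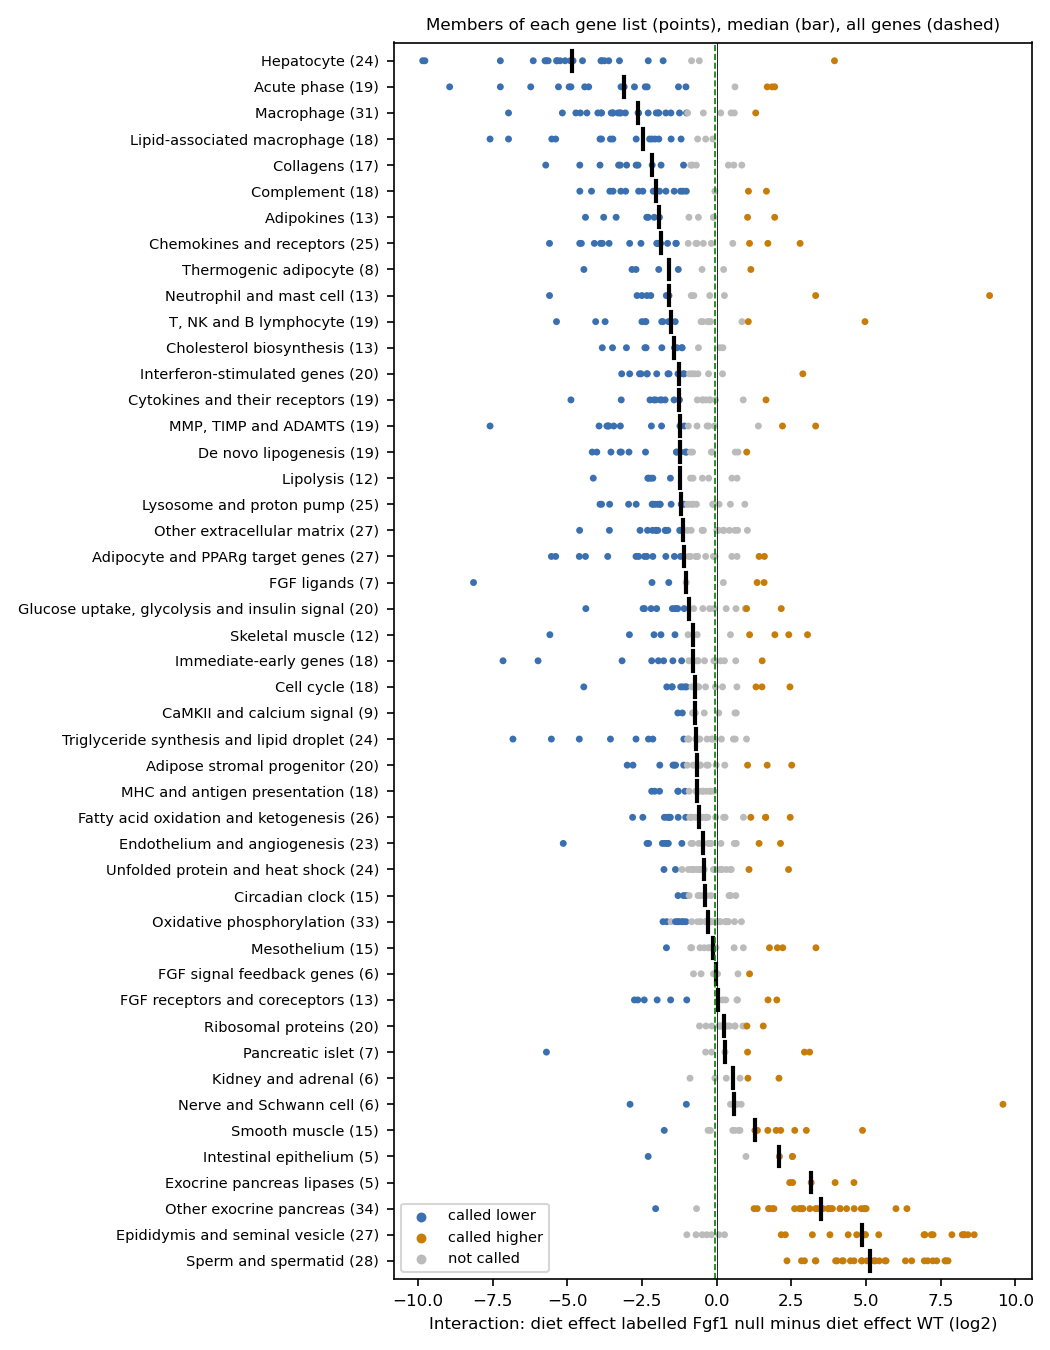
Interaction (log2) of each tested member (points) of every list with at least 5 tested genes, ordered by list median (bar), with the median of all features dashed at -0.04 and the number tested in brackets. Hepatocyte, acute phase and macrophage lists lie farthest left, with medians of -4.85, -3.10 and -2.63, and sperm and epididymis lists farthest right, with 5.15 and 4.87.

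Immediate-early genes, which respond within minutes to stimuli, included some of the most negative values. Of 18 tested 8 were lower and 1 higher (median -0.79). Atf3, a stress-induced transcription factor, was at 6.13 and 5.69 in null-labelled HFD, 10.34 and 10.29 in null-labelled chow, 8.32 and 8.36 in WT HFD and 5.68 and 5.51 in WT chow (interaction -7.15 ± 0.23), and Fos, a subunit of AP-1, was at 8.77 and 9.14 in null-labelled HFD, 11.05 and 10.96 in null-labelled chow, 11.02 and 11.10 in WT HFD and 7.22 and 7.04 in WT chow (interaction -5.98 ± 0.21). Both fell on HFD in the null-labelled pair and rose in WT. Junb, another AP-1 subunit, had -2.18 ± 0.18.

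The medians of the stress, clock, cell cycle and ribosomal lists lay between -0.73 and 0.25. Of 24 genes of the unfolded protein and heat shock responses 2 were lower and 2 higher (median -0.44). Chac1, an enzyme of glutathione breakdown induced by stress, was high in null-labelled HFD alone, at 12.03 and 11.83 in null-labelled HFD, 9.56 and 9.48 in null-labelled chow, 9.46 and 9.53 in WT HFD and 9.57 and 9.41 in WT chow (interaction 2.41 ± 0.18). Of 15 clock genes 3 were lower and 0 higher (median -0.38), with Bhlhe40, a repressor in the clock, at -1.29 ± 0.17. Of 18 cell cycle genes 8 were lower and 3 higher: Tk1, thymidine kinase, had -4.45 ± 0.21, while Cdc20, a mitotic regulator also abundant in testis, had 2.45 ± 0.19 with WT chow alone high. Of 20 ribosomal protein genes 2 were higher and 0 lower (median 0.25, and -0.23 with median scaling). Of 9 genes of calcium-dependent kinase signalling 2 were lower and 0 higher. Camk2b, a subunit of such a kinase, was not called, at -0.72 ± 0.30 (95% interval between -1.42 and -0.01), though without WT HFD array 2 it was, at -1.03.

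The interactions of organ genes follow the sums given above. Of 24 hepatocyte genes 21 were lower and 1 higher (median -4.85, and -4.65 with undetected samples at their floor). For 7 of them samples were undetected on both sides of the difference, so the floor gives no bound. Of the 13 detected on all 8 arrays 11 were lower and 1 higher (median -4.81). Hpx, hemopexin, was at 6.76 and 6.52 in null-labelled HFD, 6.66 and 6.49 in null-labelled chow, 13.26 and 13.26 in WT HFD and 6.15 and 5.75 in WT chow, with WT HFD alone high and an interaction of -7.24 ± 0.23. Apoa1, the main protein of high-density lipoprotein, was at 8.42 and 8.41 in null-labelled HFD, 6.20 and 6.57 in null-labelled chow, 13.98 and 13.96 in WT HFD and 8.30 and 8.07 in WT chow. It was higher on HFD in both pairs, with an interaction of -3.76 ± 0.21. Ttr, transthyretin, a carrier of thyroid hormone that islets also make, had -5.70 ± 0.24. Of 19 acute phase genes 15 were lower and 3 higher (median -3.10, and -1.84 for the 8 that are not at least 4-fold higher in liver). Hamp, which encodes the iron hormone hepcidin, had -6.22 ± 0.23, from WT HFD alone.

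Pancreatic genes were called higher, but most of these values have no bound. All 5 lipase genes tested were called higher (median 3.16), and of 34 other exocrine genes 32 were higher and 1 lower (median 3.51). In 4 of the 5 lipases and 22 of the 34 others, samples were undetected on both sides of the difference, so its size on the log2 scale depends on the background. Pnliprp2, a lipase related to pancreatic lipase, was at 13.89 and 13.95 in null-labelled HFD, 4.49 and 4.59 in null-labelled chow, 9.93 and 9.96 in WT HFD and 4.54 and 4.52 in WT chow. Cel, a lipase that bile salts activate, had 14.79 and 14.70 in null-labelled HFD, 4.89 and 4.72 in null-labelled chow, 11.49 and 11.41 in WT HFD and 4.75 and 4.60 in WT chow. Reg3b, a secreted protein induced in stressed acinar cells, was at 10.62 and 10.66 in null-labelled HFD, 4.37 and 4.60 in null-labelled chow, 4.51 and 4.80 in WT HFD and 4.47 and 4.54 in WT chow, high in null-labelled HFD alone. Ins2, an islet insulin gene, was at 7.67 and 7.96 in null-labelled HFD, 4.50 and 5.03 in null-labelled chow, 4.55 and 4.85 in WT HFD and 4.88 and 4.65 in WT chow, again from null-labelled HFD alone.

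Epididymal and sperm genes made up most of the largest positive interactions. Of 27 genes of epididymis and seminal vesicle 20 were higher and 0 lower (median 4.87), and of 28 sperm and spermatid genes 28 were higher (median 5.15). A gene that passed the detection filter through WT chow alone is positive by that choice, so these counts are partly fixed. Detected on all 8 arrays were 12 epididymal genes, 9 of them higher (median 6.18), and 12 sperm genes, all higher (median 4.61). The interaction had no bound in 3 epididymal and 10 sperm genes. Defb22, an epididymal beta-defensin that coats sperm, was at 13.75 and 13.59 in null-labelled HFD, 13.94 and 14.18 in null-labelled chow, 6.86 and 6.81 in WT HFD and 15.40 and 15.64 in WT chow, an interaction of 8.29 ± 0.20. Only WT HFD was low. Wfdc13, an epididymal protease inhibitor, was at least 284-fold higher, with WT HFD alone undetected. Spata19, a mitochondrial protein of sperm, was at 6.61 and 6.64 in null-labelled HFD, 6.22 and 6.15 in null-labelled chow, 6.11 and 6.27 in WT HFD and 13.38 and 13.40 in WT chow, with WT chow alone high (interaction 7.64 ± 0.16). Npy, a neuropeptide of sympathetic nerves, was at 12.41 and 12.42 in null-labelled HFD, 11.83 and 12.03 in null-labelled chow, 5.41 and 4.84 in WT HFD and 14.17 and 14.27 in WT chow. WT HFD was low, as for the epididymal genes, and its interaction of 9.58 ± 0.27 was among the largest of genes detected on some arrays.

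A small set of genes changed with diet alike in both pairs. Among named genes detected on all 8 arrays, 49 had both diet effects called in the same direction and an interaction under 0.25 in size. Of these 34 were higher on HFD and 15 lower. Acsm5, an acyl-CoA synthetase, was at 7.81 and 7.82 in null-labelled HFD, 5.94 and 5.90 in null-labelled chow, 7.61 and 7.50 in WT HFD and 5.71 and 5.75 in WT chow, an interaction of 0.06 ± 0.15 (95% interval between -0.29 and 0.42). Kyat3, a kynurenine aminotransferase, had 0.11 ± 0.16 (between -0.26 and 0.48) after rises of 1.81 ± 0.11 and 1.70 ± 0.11. Nup210, a nuclear pore protein, fell in both pairs and had 0.04 ± 0.22 (between -0.46 and 0.55), and Sh3bgrl3, a small thioredoxin-like protein, had -0.19 ± 0.17 (between -0.59 and 0.21). The intervals cover the spread between arrays, and equal diet effects are not shown by them.

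The interaction in eWAT was set against that in liver by the difference of the 2, in 1 fit over all 16 arrays, a comparison added after seeing the data. Of 8563 features tested in both tissues 34.2% were called in eWAT and 8.55% in liver, and the difference between tissues was called in 38.4%. Of the 2930 called in eWAT, the difference from liver was called the same way in 2404. The difference contains the eWAT interaction by which these features were selected, so that count was largely set by the selection. The liver interaction was called the same way in 147 of the 2930 and the opposite way in 257.

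Macrophage genes differed between the tissues. In 27 tested in both, the median was -3.21 in eWAT and 0.72 in liver, and the difference was called lower in eWAT for 23 and higher for 1. Trem2 in liver was at 7.90 and 7.80 in null-labelled HFD, 5.27 and 4.87 in null-labelled chow, 5.53 and 5.88 in WT HFD and 5.47 and 4.93 in WT chow, an interaction of 2.27 ± 0.29 there and a difference of -9.24 ± 0.41. Gpnmb had 4.40 ± 0.27 in liver, where null-labelled HFD alone was high, and a difference of -9.92 ± 0.38. For 11 collagens the medians were -2.70 in eWAT and 0.47 in liver, with 10 differences called lower and 0 higher. With the eWAT chow labels exchanged, the eWAT median was 2.10 over all 31 macrophage genes and 0.78 over all 17 collagens. Trem2 then had 3.68 ± 0.23 in eWAT. These signs are those of liver, so the contrast of sign between tissues rests on the eWAT chow labels. The difference between tissues was not fitted with that exchange.

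The cholesterol biosynthesis genes had a median of -1.41 in eWAT and -2.05 in liver over 13 genes, and the difference was called lower in 2 and higher in 4. Lss had -2.22 ± 0.25 in liver, Srebf1 -1.71 ± 0.20, Acss2 -1.77 ± 0.15 and Thrsp -2.20 ± 0.19, all negative as in eWAT, though each of the 4 differences between tissues was called. Pparg had 2.16 ± 0.14 in liver and a difference of -3.37 ± 0.20, and Pck1 had -1.78 ± 0.25 and a difference of 3.37 ± 0.35. With the eWAT chow labels exchanged Pparg had 1.10 ± 0.16 in eWAT, positive as in liver.

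**Figure D5:**
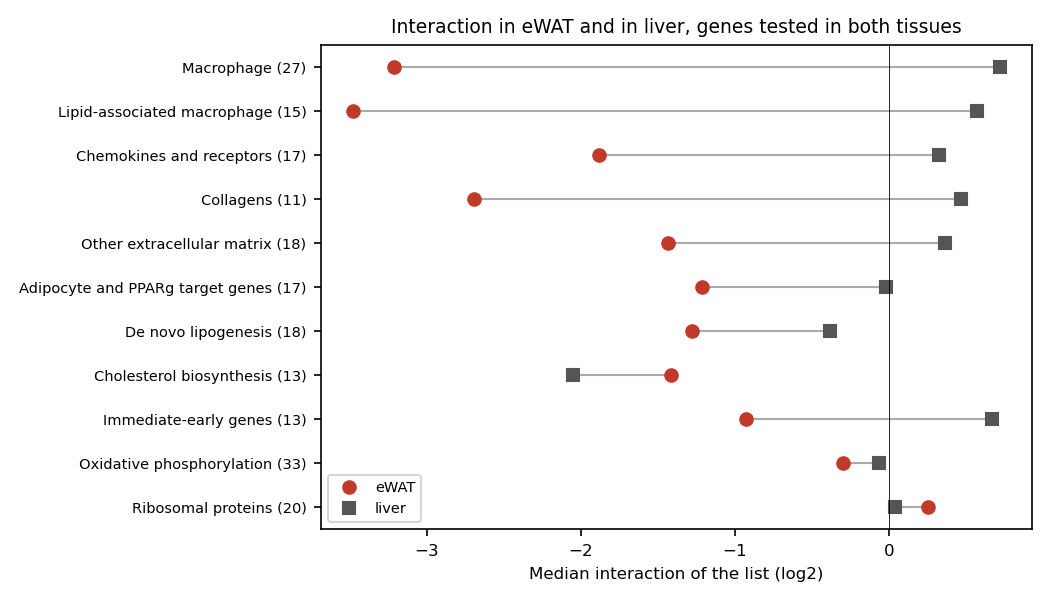
Median interaction (log2) of 11 gene lists in eWAT (circles) and in liver (squares), over genes tested in both tissues with their number in brackets. With the labels as given, macrophage medians are -3.21 in eWAT and 0.72 in liver, whereas cholesterol biosynthesis is negative in both, at -1.41 and -2.05.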

How the data were processed

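Total RNA of eWAT was hybridized to Illumina MouseRef-8 bead arrays, 1 colour. Per the submitters' processing notes the authors used GenomeStudio, with no version given. The deposited non-normalized values are, per the file headers, a linear intensity for each probe with its detection p-value. A further deposited file holds the authors' normalized intensity, by a method not given in the sources used here. It served as an alternative: each column ranked its probes as its own array did (rank correlation 1, at most 0.955 with another eWAT array), and column medians lay between 134.6 and 134.8.

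In R 4.3.3, with data.table (version 1.17.8) and limma 3.58.1, neqc used the detection p-values to correct the background of the 8 eWAT arrays, with an offset of 16, and normalized them by quantiles on the log2 scale. This spreads out dim probes. Probes with a detection p under 0.05 on each array of some group were kept (15839), and a gene was read from the brightest of its probes. Of the 25697 probes 23978 carry 1 gene symbol in the platform annotation and 1719 none, and 23962 matched RefSeq genes. Between 4 and 14 probes per array were above 60000, where the scanner compresses differences, and between 13570 and 15399 were detected. Correlations were 0.991 to 0.995 within groups and 0.769 to 0.936 between groups, and the median SD between arrays was 0.153. The number of arrays limits the precision.

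limma fitted 1 mean per group (4 residual degrees of freedom, prior 3.75, and 0 over RNA samples). A gene with undetected samples is given as at least N-fold only where all of them lie on the side of the difference that makes the fitted value a bound. On simulated data with 200 changed features of the 11935 and no variation between RNA samples, the fit recovered 86% of changes of 1.5 on the log2 scale, 86% of 2, 92% of 3 and 100% of 4, with 7 false calls. The simulated noise came from the fit's own variance model, and 39.5% of features were called in the data. These rates therefore check the code and do not give error rates for these arrays. Gene lists, their members and the rule for named genes were chosen with earlier results of these data known. Named genes are the 10 largest interactions each way among genes detected on all arrays and the 5 largest each way among the others. They also include up to 4 called members of each list, the 10 largest opposite diet effects and some fixed genes. From genes with both diet effects called in the same direction come the 5 largest called interactions each way. From such genes with an interaction under 0.25 in size come the 5 largest mean diet effects each way. Array numbers were checked as pairs and did not pair the samples (correlations of deviations from -0.05 to 0.05). No slide is named, so no slide block was run.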

Additional observations from a re-analysis of the deposited data

Results flagged for a closer look

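In 391 features the diet effects in the null-labelled and the WT pair were called in opposite directions and their difference passed limma's test. Among genes detected on all 8 arrays, each of the 10 with the largest smaller effect fell on HFD in the null-labelled pair and rose in WT. Their interactions were -8.09 for Slc5a7, -7.47 for Paqr9, -7.59 for Mmp12, -8.36 for Rgs1, -8.14 for Fgf13, -7.70 for Lipf, -8.94 for Saa3, -9.77 for Serpina1b, -6.97 for Trem2 and -9.84 for Serpina1d. With the labels of the 2 chow samples exchanged, opposite diet effects were called in 158 features. With 1 RNA sample per group no outlier among mice could be looked for.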

How the results depend on the processing

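The number of called interactions, 4713 of 11935, was 3075 with quantile normalization of uncorrected intensity, 2987 with the authors' normalized values and 2684 when limma's treat test asked for a change beyond 2-fold. Those called higher (2299) were 1515 with the authors' values, 1403 with treat and 1273 among probes detected on all 8 arrays, where 59.6% of calls were lower. Those called lower (2414) were 1523 without background correction, 1472 with the authors' values and 1281 with treat. Opposite diet effects (391) numbered 186 without background correction, 169 with the authors' values, 134 with treat and 985 with a 1.5-fold minimum, which called 6529 in all. Leaving out 1 array at a time gave 4629 to 4816 calls, 2246 to 2368 higher, 2368 to 2461 lower and 379 to 415 opposite. The array number as a replicate block called 4702, and since the numbers do not pair the samples this is a check only. An offset of 50, no filter on dim probes, a detection p under 0.01, the mean of a gene's probes, joint normalization with liver and median scaling each kept the total within 1.5 times. Median scaling split the 5250 calls into 37.3% higher and 62.7% lower. Exchanging the labels of the 2 chow samples, a choice made after seeing the data, called 3401, of them 1730 higher, 1671 lower and 158 opposite. Apart from that exchange, the median of 8 of 48 lists changed sign under at least 1 setting: FGF receptors (7 of 21 settings), FGF feedback genes (6), mesothelium (4), islet (2), and nerve, skeletal muscle, kidney and adrenal, and ribosomal proteins (1 each). Of the 223 named genes 15 lost their call without background correction, 15 with the authors' values, 26 with treat, 9 with an offset of 50, 5 with median scaling, and 1 to 4 when 1 array was left out. On the linear scale 2 of 4713 called features had the other sign. The design holds 1 RNA sample per group, so none of these settings bears on the spread between mice. Dim genes are limited by the background, and 1132 features had no bound on their interaction.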
